A study of Mus musculus with 6 samples.

Results

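The genes described here encode the SR proteins Srsf1, Srsf2, Srsf3, Srsf4, Srsf5, Srsf6, Srsf7, Srsf10 and Srsf11 and the kinase Clk1, 10 genes in all. They were followed in cultured fetal hepatocytes with and without Cnot3, before and after transcription was blocked. The members were listed by name, with earlier results of these data known. Of the 10 genes, 9 had a probe set that named them alone, among 18194 such genes on the array, and these 9 had 32 probe sets between them. No probe set was annotated to Srsf7, which was not analysed here. All 9 passed the intensity filter, which kept 16499 genes.

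The Cnot3KO cells came from E16.5 embryos of Cnot3LKO mice, in which the albumin promoter drives Cre recombinase against floxed Cnot3, so that deletion is limited to cells of the hepatic lineage. Per the study's text, Cnot3 was only partly lost in the fetal liver, and was suppressed well once the cells had been cultured. The controls are labelled wild type, and the study's methods also accept floxed mice without Cre and Cre carriers with at least 1 intact allele as controls, without saying which gave these arrays. Cells of both genotypes were grown under the same conditions with oncostatin M and dexamethasone, and total RNA was taken after 0, 6 or 12 h of actinomycin D (ActD), which stops transcription. There was 1 Affymetrix array for each genotype and time, 6 in all, and the sources do not say how many embryos stand behind each.

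SR proteins bind exonic sequences in pre-mRNA through RNA recognition motifs and recruit the spliceosome through a domain rich in arginine and serine. Clk1 is a nuclear kinase that phosphorylates this domain and so governs where SR proteins reside and when they act. SR genes are known to limit their own output through alternative exons that send the transcript to decay, and Clk1 transcripts are known to retain introns in the nucleus. The Cnot complex shortens poly(A) tails in the cytoplasm, the step that usually starts the decay of a finished mRNA.

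Intensities were values of the Robust Multi-array Average (RMA) on a linear scale and are relative within each array, whose medians lay between 69.7 and 72.4. The arrays correlated with Spearman's rho between 0.935 and 0.993. A gene whose mRNA is lost at the pace of the typical mRNA therefore appears level after ActD. The brighter of 2 Cnot3 probe sets gave 174, 174 and 146 at 0, 6 and 12 h in Cnot3KO cells, against 296, 214 and 158 in control cells. The other differed by only -0.05 (log2) at 0 h, and it is unknown if either set detects the deleted exons. All 7 measured hepatocyte markers exceeded the median of every array. Alb, at or near the highest intensity of every array, had 33652 to 34977 in Cnot3KO cells and 33707 to 35595 in control cells. The dimmer Hnf4a had 8232, 5304 and 4106 at 0, 6 and 12 h in Cnot3KO cells, against 6531, 3579 and 2603 in control cells. Markers of other cells, taken as sums, moved with genotype. The summed intensity of 7 cholangiocyte markers, 6 of them above the median of every array, was 34124 to 41356 in Cnot3KO cells and 19433 to 22734 in control cells. That of 11 macrophage markers, all 11 above the median, was 9905 to 10803 in Cnot3KO cells and 12901 to 16541 in control cells, and that of 10 stellate cell and fibroblast markers, 8 above it, was 8885 to 13999 in Cnot3KO cells and 17730 to 19177 in control cells. For 9 endothelial markers, 2 above the median, the sum was 484 to 1022 in Cnot3KO cells and 744 to 1563 in control cells, and for 9 leukocyte markers, 4 above it, 1434 to 2343 in Cnot3KO cells and 1548 to 3362 in control cells. Of 7 erythroid markers, 3 were above the median, and their sum was carried by Tfrc, the transferrin receptor of many cell types (4703 to 5275 in Cnot3KO cells and 7430 to 8754 in control cells), with the other markers at or below 142. Not every marker followed its sum. In Cnot3KO cells Sox9 was lower at 0 h (152 against 184 in control cells) and Epcam at 12 h (1534 against 1686). Cd68 (740 against 512) and Cd14 (1746 against 1172) were higher in Cnot3KO cells at 12 h. No intensity on these arrays was at 0 (minima of 5.75 to 6.28). The markers Cftr (12.4 to 17.7) and Lrat (13.1 to 18.6) lay below the 20th percentile of every array. In bulk RNA fewer cells of a type and less RNA per cell cannot be told apart, and the part of these cells in the results below was not tested.

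Before ActD, by the brightest probe set of each gene, the SR genes were at similar levels in both genotypes, apart from Srsf4, Srsf5 and Clk1. These 3 were over 1.5-fold higher in Cnot3KO cells, 3 of 9 genes against 6.87% of 16110 genes. Srsf5, first described in regenerating liver, had 5868 in Cnot3KO and 3514 in control cells, a 1.67-fold difference. Clk1 had 2077 in Cnot3KO and 1325 in control cells (1.57-fold), and Srsf4, the SR protein with the longest arginine- and serine-rich domain, had 1739 in Cnot3KO and 1148 in control cells (1.51-fold). None was over 1.5-fold lower, against 2.99% of genes. Srsf4 thus lay just inside the limit, and the next gene, Srsf6, lay outside it at 1.24-fold (6029 in Cnot3KO and 4868 in control cells). Srsf1, Srsf2, Srsf3, Srsf10 and Srsf11 differed by -0.17 to 0.21 (log2).

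With 1 array per genotype these differences carry no error of their own. As a guide to technical error, the difference at 0 h had an SD of 0.24 (log2) between probe sets of 1 gene, over 4079 genes. Srsf4, Srsf5 and Clk1 each had only 1 probe set, so that no other set checks them. Centred on a probe set of Gapdh, whose sequence is shared with pseudogenes, only Srsf5 stayed above 1.5-fold.

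After 12 h of ActD most of these mRNAs were far below their 0 h level in control cells, relative to the typical mRNA, and nearer to it in Cnot3KO cells. At 12 h, 6 of 9 genes were over 2-fold lower than at 0 h in control cells, against 15.1% of all genes, and 0 of 9 were in Cnot3KO cells, against 4.38%. The 6 were Srsf1, Srsf2, Srsf3, Srsf4, Srsf6 and Clk1.

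Srsf3, the smallest classical SR protein and one that also takes part in mRNA export, had the widest gap between 0 and 12 h in control cells among the brightest sets. Its intensities at 0, 6 and 12 h were 5624, 5399 and 3661 in Cnot3KO cells, against 5301, 2472 and 952 in control cells. By its brightest set the genotypes thus started alike and were 3.84-fold apart at 12 h, higher in Cnot3KO cells. Srsf1, the founding SR protein known as SF2/ASF, had 5884, 6629 and 4916 in Cnot3KO cells, against 5813, 3474 and 1824 in control cells. By this set it too began at the same level, and it was 2.69-fold higher in Cnot3KO cells at 12 h. Srsf2, known as SC35 and a marker of nuclear speckles, had 4676, 4848 and 3552 in Cnot3KO cells, against 5249, 3674 and 2035 in control cells. For the brightest sets of these 3 genes the ranges of the genotypes overlapped, because the Cnot3KO value at 12 h lay below the control value at 0 h.

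Clk1 had 2077, 1736 and 2110 at 0, 6 and 12 h in Cnot3KO cells, against 1325, 530 and 482 in control cells. Every Cnot3KO value lay above every control value. The genotypes were 4.37-fold apart at 12 h, the widest gap among the brightest sets of the 9 genes. Srsf4 had the same form, with 1739, 1521 and 1389 in Cnot3KO cells, against 1148, 482 and 394 in control cells. In control cells Clk1 had reached 90.8% and Srsf4 81.1% of its 12 h change (log2) after 6 h. For Srsf1, Srsf2, Srsf3 and Srsf5 that share was 37.0% to 44.4%, so that their decline was spread more evenly over both intervals.

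Srsf6, the SR protein also known as SRp55, had 6029, 6112 and 5953 in Cnot3KO cells, against 4868, 2756 and 1719 in control cells. Srsf5 had 5868, 4864 and 5064 in Cnot3KO cells, against 3514, 2765 and 1840 in control cells, a 1.91-fold lower value at 12 h than at 0 h in control cells. Srsf11, an SR-related protein of the spliceosome also known as p54, had 2705, 2868 and 3368 in Cnot3KO cells, against 2340, 1741 and 1579 in control cells. For the brightest sets of these 3 genes, as for those of Clk1 and Srsf4, all 3 Cnot3KO values exceeded all 3 control values. That made 5 of 9 genes, against 15.9% of all genes, and 0 of 9 had all Cnot3KO values below all control values, against 12% of genes.

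Srsf10, which unlike its relatives can act as a splicing repressor when dephosphorylated, was the exception. Its brightest probe set had 853, 1093 and 954 in Cnot3KO cells, against 858, 1041 and 828 in control cells. The genotypes differed by at most 0.20 (log2) at any time by this set. At 12 h the brightest sets of the other 8 genes were over 1.5-fold higher in Cnot3KO cells, 8 of 9 genes against 27.4% of all genes. By these sets 0 of 9 were over 1.5-fold lower, against 13.8%.

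**Figure D1:**
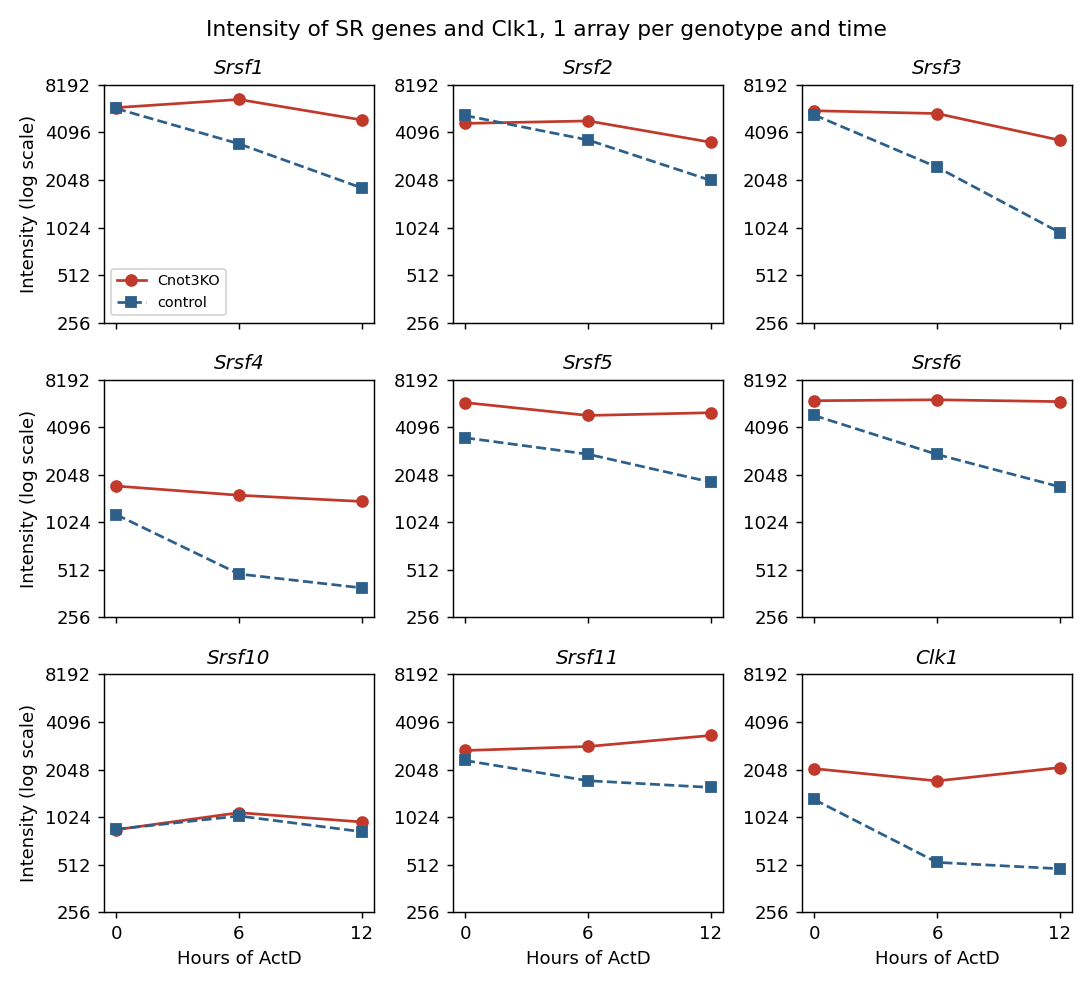
Intensity (log scale) of the brightest probe set of each of 9 genes against hours of ActD, in Cnot3KO (circles, solid lines) and control cells (squares, dashed lines), each point 1 array. Srsf1, Srsf2 and Srsf3 start alike and part under ActD, Clk1, Srsf4 and Srsf5 start higher in Cnot3KO cells, and the lines of Srsf10 stay together.

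Apparent half-lives were taken from a straight line through the 3 log2 values of a genotype. They are relative to the typical mRNA, have no replicates, and with evenly spaced times their slope rests on the 0 and 12 h values alone. In control cells the shortest was that of Srsf3 with 4.84 h, followed by Srsf1 (7.18 h), Srsf4 (7.78 h), Srsf6 (7.99 h), Clk1 (8.23 h), Srsf2 (8.78 h), Srsf5 (12.9 h) and Srsf11 (21.2 h), with Srsf10 nearly level (232 h). In Cnot3KO cells the half-life was 19.4 h for Srsf3, 30.3 h for Srsf2 and 37.0 h for Srsf4, and the others were longer or had no downward slope. Half-life was over 2-fold longer in Cnot3KO cells for 6 of 9 genes, against 11.4% of all genes, and over 2-fold longer in control cells for 0 of 9, against 0.673%. With 3 evenly spaced times a control half-life of at most 12 h is the same as a 2-fold lower value at 12 h, so these are the 6 genes already named. Srsf5 missed the count because its control half-life exceeded 12 h, the limit set for it.

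The difference in change is the fitted change over 12 h of ActD in Cnot3KO minus that in control cells, and its size again rests on the 0 and 12 h arrays, with the 6 h arrays entering its error. It was above 0 for 9 of 9 genes, with a median of 1.22 (log2). Over all genes the median was -0.04, and 47.1% were above 0. Srsf3 had 1.86 ± 0.33 (log2 and SE), Srsf6 1.48 ± 0.28, Clk1 1.48 ± 0.52 and Srsf1 1.41 ± 0.35. Srsf4 had 1.22 ± 0.42, Srsf2 0.97 ± 0.34, Srsf11 0.88 ± 0.29, Srsf5 0.72 ± 0.31 and Srsf10 0.21 ± 0.39. In limma's test of this difference over all genes 0 of 9 passed (adjusted p between 0.179 and 0.796), and the background was equally 0% of 16499 genes for slower and 0% for faster loss in Cnot3KO cells. At an unadjusted p under 0.05, 7 of 9 genes (all but Srsf5 and Srsf10) had a slower loss in limma, against 12.8% of all genes, and 0 a faster loss, against 4.95%. The model had 2 residual degrees of freedom, and between probe sets of 1 gene this measure had an SD of 0.42 (log2). Centring on Gapdh, which moved the median of all genes by 0.18 (log2) on the control array at 12 h, left 8 of 9 above 0, with Srsf10 at -0.00094. Among the 7 lists of cell type markers the median of this measure ran between -0.80 for stellate cells and fibroblasts and 0.25 for cholangiocytes.

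The genotype difference over the 3 times together was 1.5 ± 0.29 (log2 and SE) for Clk1, 1.36 ± 0.26 for Srsf4 and 1.0 ± 0.19 for Srsf5. These were 2.82-fold, 2.56-fold and 2.01-fold higher levels in Cnot3KO cells, and each missed the threshold narrowly (limma, adjusted p = 0.0540, 0.0539 and 0.0538). Srsf6 (1.08 ± 0.29) and Srsf3 (1.05 ± 0.34) were next, followed by Srsf1 (0.79 ± 0.28), Srsf11 (0.67 ± 0.20), Srsf2 (0.35 ± 0.21) and Srsf10 (0.09 ± 0.14). None of the 9 passed as higher, against 0.703% of genes, or as lower, against 0.285%. At an unadjusted p under 0.05 in limma 7 of 9 were higher and 0 lower, against 22.4% and 11% of all genes, and in the methods' t-test 4 of 9 had an unadjusted p under 0.05, against 16.3% of all genes, and 0 passed after adjustment. The count depended on the 0 h arrays: without them 8 of 9 passed as higher, all but Srsf10, but so did 24.3% of all genes. The times are not replicate cultures, so that these p-values measure agreement over times.

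The change at 12 h fitted to both genotypes together was below 0 for 8 of 9 genes, led by Srsf3 (-1.55 ± 0.42, log2 and SE) and Srsf1 (-0.97 ± 0.34). None passed as lower (limma, adjusted p from 0.0823, against 4.53% of genes) or as higher (against 2.24%). In limma 4 of 9 were lower at an unadjusted p under 0.05, against 15.8% of all genes. This term averages 2 genotypes with unlike changes.

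The remaining probe sets gave like values for some genes and unlike ones for others. Of the 32 sets 28 exceeded the median on all 6 arrays, and 27 of these 28 had a difference in change above 0, with a median of 1.08 (log2). At 0 h 12 of the 28 were higher in Cnot3KO cells. Sets of 1 gene share the arrays and are not independent, and the share over all probe sets was not computed. All 6 bright sets of Srsf1 lay between 1.18 and 1.85, and all 4 of Srsf3 between 1.40 and 1.86. At 0 h the sets of Srsf1 differed between genotypes by -0.62 to 0.25 (log2). The lowest, its dimmest bright set, had 447, 415 and 188 in Cnot3KO cells, against 687, 317 and 79.9 in control cells. For Srsf3 the 3 dimmer of these sets were lower in Cnot3KO cells at 0 h, down to -0.48 (log2), while the brightest was at 0.09. At 12 h these 3 were 0.96 to 1.35 (log2) higher in Cnot3KO cells, against 1.94 in the brightest. The fifth set of Srsf1 had 1019, 1282 and 876 in Cnot3KO cells, against 857, 605 and 325 in control cells, without overlap. Srsf2 had 3 sets between 0.68 and 0.99 and a dim set at 0.14. The dim set had 246, 255 and 256 in Cnot3KO cells and 236, 258 and 223 in control cells. The second brightest Srsf2 set was 0.34 (log2) higher in Cnot3KO cells at 0 h. It had 4226, 4482 and 3433 in Cnot3KO cells, against 3335, 2751 and 1367 in control cells, also without overlap.

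Srsf6 had 4 bright sets of which 3 opposed the brightest. The second brightest had 1301, 2827 and 2370 at 0, 6 and 12 h in Cnot3KO cells, against 1989, 3392 and 3140 in control cells. It was thus 1.53-fold lower in Cnot3KO cells at 0 h, and higher at 12 h than at 0 h in both genotypes, by 1.82-fold in Cnot3KO and 1.58-fold in control cells. The other 2 sets were 1.79-fold and 1.61-fold lower in Cnot3KO cells at 0 h and likewise higher at 12 h than at 0 h. In all 3 the difference in change was between 0.12 and 0.21 (log2), with SEs of 0.52 to 0.65, against 1.48 in the brightest set. The annotation does not say which transcripts or exons each set detects, so the direction for Srsf6 holds for its brightest set alone.

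Srsf10 was the reverse case. Of its 4 sets, 1 had 880, 665 and 652 in Cnot3KO cells, against 909, 170 and 133 in control cells, 6.83-fold lower at 12 h than at 0 h in control cells, with a difference in change of 2.34 (log2), the largest of the 32 sets. Its dimmest set had 144, 153 and 112 in Cnot3KO cells, against 232, 136 and 95.7 in control cells, with a difference of 0.92. The 2 brightest sets of Srsf10 were at 0.21 and 0.48. Srsf11 had 1 set that went the other way, with 131, 154 and 173 in Cnot3KO cells, against 186, 252 and 370 in control cells, and a difference in change of -0.59, while its 2 brightest sets were at 0.88 and 0.78.

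**Figure D2:**
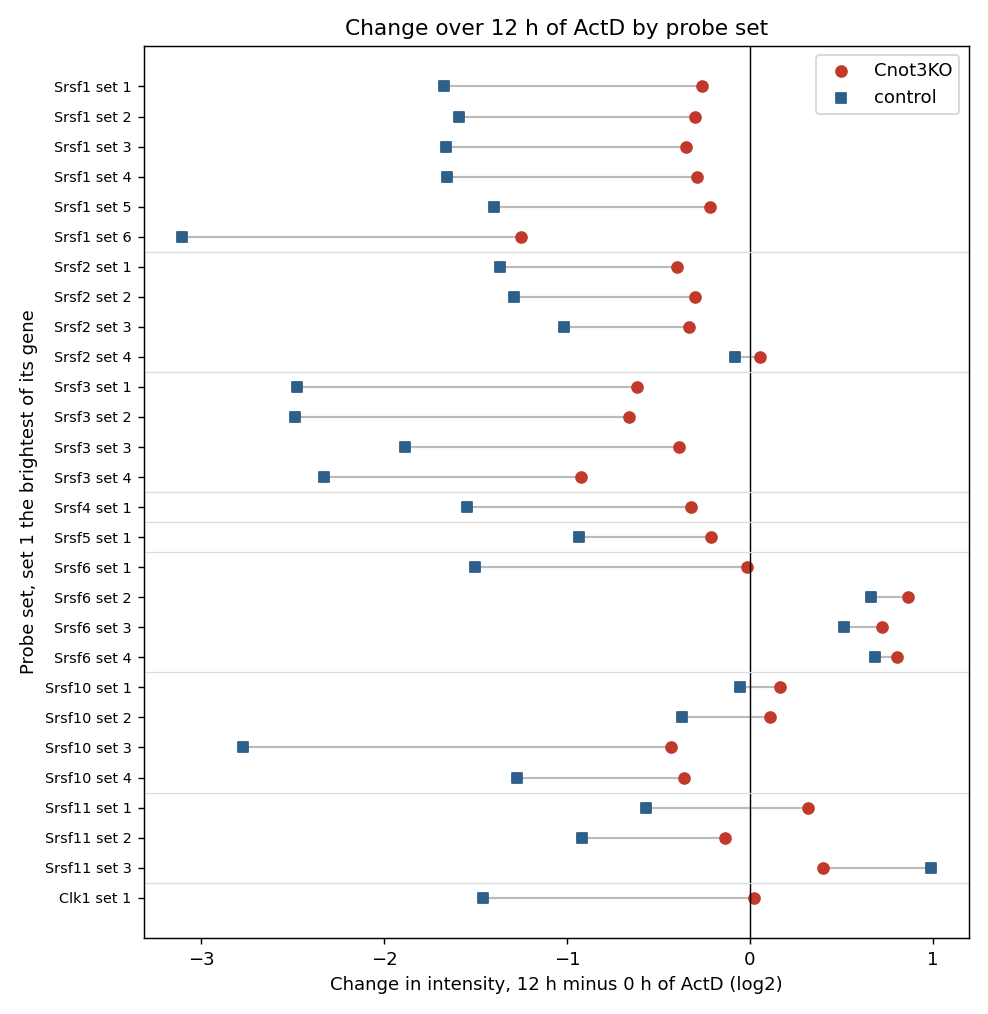
Change in intensity at 12 h relative to 0 h of ActD (log2), in Cnot3KO (circles) and control cells (squares), for each of the 28 probe sets above the median of all 6 arrays, grouped by gene. The control value lies to the left of the Cnot3KO value in 27 of 28 sets, Srsf11 set 3 being the exception, and 3 sets of Srsf6 lie right of 0 in both genotypes.

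The genes that work with the SR proteins were examined by list. Of 37 other SR and SR-related genes 34 were kept, and 31 had a difference in change above 0 (against 47.1% of all genes), with a median of 0.92 (log2). Half-life was over 2-fold longer in Cnot3KO cells for 16 of the 34, against 11.4% of all genes. Luc7l3, a relative of a U1 snRNP protein, had 1941, 2443 and 2729 in Cnot3KO cells, against 2004, 877 and 661 in control cells. Scaf8, a binder of the polymerase tail, had 690, 260 and 354 in Cnot3KO cells, against 610, 120 and 74.5 in control cells. Scaf11, which bridges SR proteins and the spliceosome, had 2169, 1511 and 1248 in Cnot3KO cells, against 1471, 578 and 211 in control cells, and Rsrc2, an arginine- and serine-rich protein, was 1.46 ± 0.38 (log2 and SE) higher over the times. None of the 34 passed a test of genotype or of the difference in change (limma). At an unadjusted p under 0.05 in limma, 21 were higher, against 22.4% of all genes, and 18 slower, against 12.8%. None was lower, against 11%, or faster, against 4.95%. Srsf9, the remaining SR protein with a bright probe set, named after its values were seen, had 2749, 3334 and 2602 in Cnot3KO cells, against 2808, 3440 and 2055 in control cells, a difference in change of 0.37.

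All 19 SR protein kinases, phosphatases and their partners were kept. Their median difference in change was 0.33 (log2), with 12 of 19 above 0 (against 47.1% of all genes), 4 with an over 2-fold longer half-life (against 11.4%) and 0 past the test. In limma 6 of 19 were slower at an unadjusted p under 0.05 (against 12.8%) and 0 faster (against 4.95%). Clk2, a sister kinase of Clk1, had 423, 540 and 676 in Cnot3KO cells, against 398, 274 and 249 in control cells, a difference in change of 1.36 ± 0.31. Clk3 and Clk4, named after their values were seen, had differences of 1.19 and 1.10, whereas those of the SR protein kinases Srpk1 and Srpk2, also named after, were 0.24 and -0.14. Topors, a ligase that binds topoisomerase I, was 1.67 ± 0.32 (log2 and SE) higher in Cnot3KO cells over the times and Ppp1r8, a nuclear regulator of protein phosphatase 1, 1.13 ± 0.27, neither past the test (limma, adjusted p = 0.0538 and 0.0621).

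Other families of splicing factors had a median difference in change nearer to that of all genes than the SR genes had. The 30 measured hnRNP genes, which often counter SR proteins, had a median difference in change of 0.23 (log2). Of these 30, 21 were above 0 (against 47.1% of all genes) and 3 had an over 2-fold longer half-life (against 11.4%). Hnrnpd, an AU-rich element binder, had 3233, 2708 and 1750 in Cnot3KO cells, against 3261, 1449 and 482 in control cells, and Hnrnpdl, its close relative, and Pcbp1, a poly(C) binder, had differences of 1.12 and 1.19. The 55 measured core spliceosome genes had a median of 0.40, with 39 above 0 (against 47.1% of all genes). Half-life was over 2-fold longer in Cnot3KO cells for 12 of the 55, against 11.4% of all genes. Cwc22, which joins the spliceosome to the exon junction complex, had 283, 240 and 263 in Cnot3KO cells, against 181, 27.1 and 23.1 in control cells, the last of them close to the 20th percentile of its array (22.4). Lsm8 and Prpf38b had differences of 2.49 and 2.43. None passed in either list. At an unadjusted p under 0.05 in limma 3 of 30 hnRNP and 14 of 55 core genes were slower and 0 faster, against 12.8% and 4.95% of all genes, so that the hnRNP count was near the background.

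**Figure D3:**
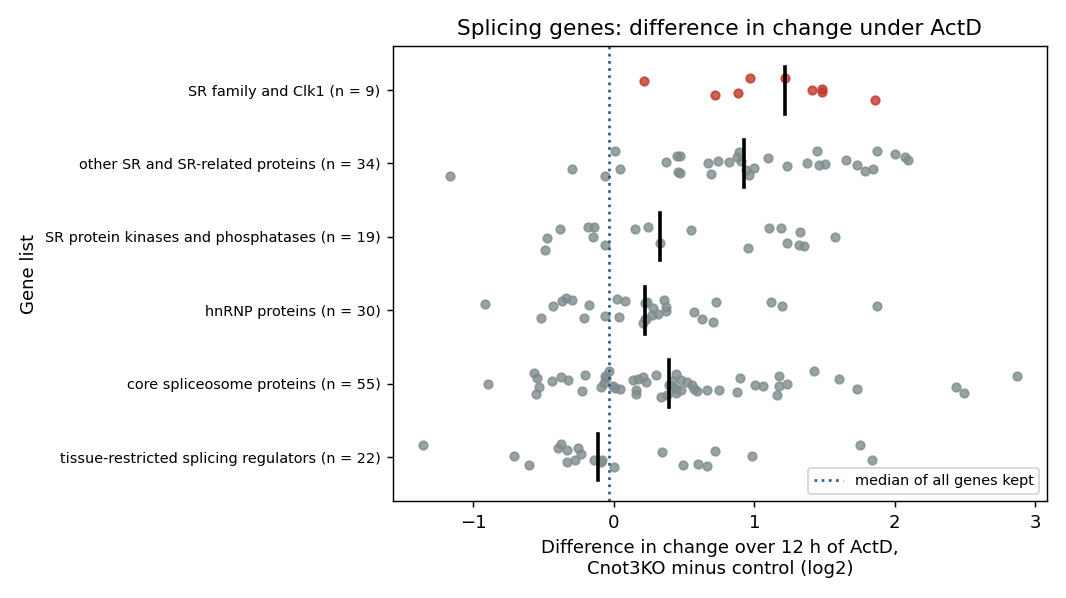
Difference in change over 12 h of ActD (log2, Cnot3KO minus control) for each gene of 6 lists, with a black bar at the list's median and a dotted line at the median of all 16499 genes. The 8 measured SR genes and Clk1 lie right of the dotted line, as do most of the 34 other SR and SR-related genes, and the tissue-restricted regulators lie on both sides.

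The genes most like Clk1 over the 6 arrays, among 517 candidates that were bright on all arrays and varied at least as much, were Irx3, Gpatch1, Marchf7, Anks4b and Med17 (Pearson's r of 0.997 to 0.998 across arrays). Irx3 had 530, 376 and 482 in Cnot3KO cells, against 267, 91.0 and 75.9 in control cells. The genes most like the mean profile of the 8 measured SR genes, among 2181 candidates, were U2surp, Med8, Tmem41b, Sf3a1 and Plk1 (r of 0.997 to 0.999). U2surp had 2694, 2586 and 2160 in Cnot3KO cells, against 1917, 884 and 342 in control cells. All of these genes share the 6 arrays and the time course, and r is given as a description.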

How the data were processed

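Total RNA was hybridised to Affymetrix GeneChip Mouse Genome arrays. The authors computed 1 intensity per probe set with RMA, whose software version is not given in the sources used here, and the deposited intensities are on a linear scale, so log2 was taken. Of 45037 probe sets, 34945 carried 1 gene symbol in the platform annotation, 932 several and 9160 none. Symbols were updated through the RefSeq table of GRCm38.p6. Each gene was represented by the probe set naming it alone with the highest mean log2 value, with the other sets as a check, and kept if above the 20th percentile of at least 1 array (16499 genes, or 16110 at 0 h).

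Genotype and the change at 12 h were tested with limma 3.58.1 (R 4.3.3) with time as a factor, and the difference in change as genotype by hours. With 6 arrays, 2 residual degrees of freedom were left to each fit. Adjustment of p-values was made over all genes kept (Benjamini-Hochberg, 0.05). Counts past 1.5-fold or 2-fold and half-lives carry no test. Half-life counted as over 2-fold longer where the other genotype's was at most 12 h and the decay rate less than that rate divided by 2. The models were run on simulated data with independent normal errors, which cannot stand for unreplicated cultures or for shifts of a whole array. The number of arrays limits the precision. Members and gene lists were chosen with earlier results of these data known. All members and their probe sets were named. From other lists were named the 2 genes with the largest genotype difference and the 2 with the largest difference in change, among those above the median of at least 1 array, and for likeness the 5 genes with the highest Pearson's r to Clk1 and to the mean SR profile.

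Alternatives comprised filters, choices of probe set, scaling, a variance prior with an intensity trend, fits without the arrays of 1 time, the methods' t-test and half-lives from 2 times.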

Additional observations from a re-analysis of the deposited data

Results flagged for a closer look

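The brightest probe set of Srsf11 went in opposite directions in the genotypes. Relative to 0 h it stood at 0.08 and 0.32 (log2) at 6 and 12 h in Cnot3KO cells, and at -0.43 and -0.57 in control cells. The fitted difference in change was 0.88 ± 0.29 and did not pass limma's test over all genes (adjusted p = 0.233, and 0.220 to 0.581 over 9 alternatives). Its other bright sets did not share this: at 12 h 1 was below its 0 h level in both genotypes (-0.13 in Cnot3KO and -0.92 in control cells), and 1 was above it in both (0.40 in Cnot3KO and 0.99 in control cells). Each direction rests on 1 array per time.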

How the results depend on the processing

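Counts are of the 9 measured members, each with the share of all genes called in that setting. The brightest sets of all 9 exceeded the median of every array. With the intensity filter at the 50th percentile their counts stayed the same, but several shares of all genes rose. These were 14.5% for a longer half-life and 19.1% for an over 2-fold lower value at 12 h in control cells. They were 34.2% for over 1.5-fold higher at 12 h and 19.5% for higher without overlap. The count over 1.5-fold higher in Cnot3KO cells at 0 h was 3 and became 1 of 7 with sets whose identifier carries no letter for shared or variable matches (plain sets, 6.38%), 0 of 6 with the second brightest set (5.26%, with 1 lower there, Srsf6, against 3.92%) and 1 with Gapdh centring (5.13%). It became 2 with centring on ribosomal protein genes (6.18%) and 2 with quantile normalization (5.82%), as Srsf4 dropped out. For the genotype difference over the times 0 were higher, but 3 with the mean of a gene's sets (7.48%), 1 of 7 with plain sets (3.30%), 5 with Gapdh centring (10.9%), 4 with an intensity trend (9.19%) and 8 without the 0 h arrays (24.3%). For the change at 12 h 0 were lower, but 1, Srsf3, with plain sets (5.72%), Gapdh centring (8.47%) or the trend (6.41%). With the second brightest sets 3 of 6 had a longer half-life (9.61%), 3 were over 2-fold lower at 12 h in control cells (14.1%), 4 over 1.5-fold higher at 12 h (21.6%) and 1 higher without overlap (12.0%). With plain sets 5 of 7 were over 1.5-fold higher at 12 h (26.0%), 3 without overlap (14.5%) and 1 over 2-fold lower at 12 h in Cnot3KO cells (4.56%), and with the mean of sets 3 of 9 were without overlap (14.7%). The counts of a longer half-life and of an over 2-fold lower value in control cells became 5 with the mean of sets (7.57% and 10.3%). They became 7 with ribosomal protein centring (12.6% and 17%) and 4 of 7 with plain sets (11% and 14.8%). The count over 1.5-fold higher at 12 h became 7 with the mean of sets (22.3%) and 7 with Gapdh centring (20.4%). No member passed the test of the difference in change under any of 9 alternatives, and neither did any other gene (0% in each).

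Among the fitted values, directions turned for Srsf6, Srsf10 and Srsf11 alone. The genotype difference of Srsf6 was -0.12 with the mean of sets and -0.43 with the second set, and its change at 12 h 0.34 and 0.76. The change of Srsf10 was -0.62 with the mean of sets, -0.13 both with plain sets and with the second set, and -0.039 centred on ribosomal protein genes. Its genotype difference was -0.024 with Gapdh centring and -0.033 with quantile normalization, and its difference in change -0.00094 with Gapdh centring. The change of Srsf11 was 0.027 with the mean of sets. The cause was not tested. Gapdh centring shifted the median gene by 0.18 (log2) on the control array at 12 h.

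Over all genes the genotype calls were 116 higher and 47 lower, and ranged from 0 to 4004 higher and 0 to 1806 lower over 13 alternatives.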

Other observations

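The genes listed as tissue-restricted splicing regulators did not share the pattern as a list. The name is that of the list, and expression across tissues was not examined here. Of 24 listed genes 22 were kept, and their median difference in change was -0.11 (log2), with 9 above 0 (against 47.1% of all genes). None passed the test of that difference (limma). At an unadjusted p under 0.05, 3 were slower and 1 faster in Cnot3KO cells, against 12.8% and 4.95% of all genes. Esrp2, an epithelial splicing factor that is active in hepatocytes, had 1264, 1037 and 1417 at 0, 6 and 12 h in Cnot3KO cells, against 893, 478 and 280 in control cells, a difference in change of 1.84 ± 0.37. Rbm5, a splicing factor linked to apoptosis genes, had 1974, 1394 and 1919 in Cnot3KO cells, against 1464, 471 and 422 in control cells.

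The muscleblind genes Mbnl1 and Mbnl2 and the RNA-binding genes Qk and Khdrbs3, named after their values were seen, were lower at 12 h in both genotypes. They passed the test of that change among all genes (limma, adjusted p = 0.0478, 0.0237, 0.0358 and 0.0254). In this list 4 of 22 genes passed as lower, against 4.53% of all genes. Mbnl2 had 2186, 938 and 698 in Cnot3KO cells, against 2027, 1194 and 815 in control cells, a difference in change of -0.33 ± 0.39. Qk had 1736, 1263 and 895 in Cnot3KO cells, against 1897, 1372 and 974 in control cells, a difference of 0.0056 ± 0.27.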
